A study of Mus musculus with 2 samples.

Results

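The genes described here encode the Meis, Pbx and Pknox homeodomain transcription factors. The 8 genes Meis1, Meis2, Meis3, Pbx2, Pbx3, Pbx4, Pknox1 and Pknox2 were taken by name from the 21938 protein-coding genes of GENCODE M21 on the main chromosomes of mouse build mm10 (GRCm38). For each gene, accessible chromatin was read over the gene body and 200 kb on each side, which gave 4100.4 kb of windows with no overlap among them. A promoter peak lay within 500 bp of any annotated start site of the gene, and a distal site lay over 1000 bp from every annotated start site of any gene. The rule uses no measured value.

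The material was facial prominence tissue of healthy B6NCrl mouse embryos at embryonic day 14.5, male and female embryos pooled, with no treatment or genetic change named in the labels. Facial prominences are the swellings of mesenchyme and covering epithelium that build the face. Chromatin was profiled by DNase-seq, in which the enzyme DNase I cuts DNA that nucleosomes leave exposed, in 2 biological replicates. Both replicates carry the same donor record and separate tissue sample records. With 1 group of 2 replicates no test between conditions was possible, and each value is given per replicate.

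Meis, Pbx and Pknox proteins belong to the TALE class of homeodomain proteins, so called for extra amino acids in a loop between helices of the homeodomain. Meis or Pknox (also called Prep) proteins bind Pbx proteins, which helps to hold Pbx in the nucleus, and the pair binds DNA with a composite site made of a Pbx part and a Meis part. Pbx proteins also bind DNA together with Hox proteins. In mice, Pbx genes act in the fusion of the upper lip and in palate development, and Meis2 in cranial neural crest is needed for normal craniofacial bones and cartilage.

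On GRCm38 (mm10) Meis1 spans chr11:18879817-19018985 on the bottom strand, Meis2 chr2:115863064-116065839 on the bottom strand and Meis3 chr7:16175090-16186504 on the top strand. Pbx2 spans chr17:34591266-34597400 on the top strand, Pbx3 chr2:34171457-34373142 on the bottom strand and Pbx4 chr8:69832491-69872292 on the top strand. Pknox1 spans chr17:31564734-31607693 on the top strand and Pknox2 chr9:36890982-37147407 on the bottom strand. Pknox2, Meis2, Pbx3 and Meis1 are long genes of 256.4, 202.8, 201.7 and 139.2 kb, and the other 4 run from 6.13 kb (Pbx2) to 43 kb (Pknox1).

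Sequences are shown for 4 shared distal sites that hold a short motif bound by these factors. A shared site is a stretch in which a peak of replicate 1 overlaps a peak of replicate 2 by at least 1 bp. The Pbx3 and Pbx4 sites are the highest-ranked distal sites of their windows, and the Meis2 site shares that place with another site of equal rounded rank. The Meis1 site was chosen after its values were seen, because it was the only one of 333 sites to hold both TGACAG, the site of Meis and Pknox proteins, and TGATTNAT, a site of Pbx with Hox proteins. The highest-ranked distal sites of the Meis1, Meis3, Pbx2, Pknox1 and Pknox2 windows held neither motif and are not printed. Each line gives the central 150 bp of the site from the RefSeq sequence of GRCm38 (mm10), 5′ to 3′. Capitals mark matches to TGACAG or TGATTNAT on either strand, so CTGTCA is TGACAG read on the other strand.
Meis1 intronic site, chr11:18945016-18945165, top strand: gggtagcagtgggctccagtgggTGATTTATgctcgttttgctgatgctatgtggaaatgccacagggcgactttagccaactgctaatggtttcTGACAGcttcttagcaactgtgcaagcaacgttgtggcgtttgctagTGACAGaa
Meis2 upstream site, chr2:116071576-116071725, top strand: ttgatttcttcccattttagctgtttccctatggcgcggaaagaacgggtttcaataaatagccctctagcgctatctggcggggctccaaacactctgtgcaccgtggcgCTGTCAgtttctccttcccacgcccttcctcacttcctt
Pbx3 intronic site, chr2:34249626-34249775, top strand: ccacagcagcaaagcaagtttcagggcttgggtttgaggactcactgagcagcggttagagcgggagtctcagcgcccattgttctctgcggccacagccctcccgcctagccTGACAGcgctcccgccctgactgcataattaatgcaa
Pbx4 upstream site, chr8:69716976-69717125, top strand: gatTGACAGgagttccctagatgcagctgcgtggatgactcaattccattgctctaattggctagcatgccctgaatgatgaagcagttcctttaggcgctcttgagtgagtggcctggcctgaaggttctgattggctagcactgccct

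Promoter sequences are shown for the 3 genes whose 100 bases before the outermost start site hold CCAAT on either strand, the box bound by NF-Y. In all 3 the stretch lies at a promoter peak found in both replicates. Capitals mark CCAAT or its complement ATTGG. Each line is read in the direction of transcription, 5′ to 3′, from GRCm38 (mm10), and ends at the base before the start site.
Meis1 promoter, chr11:19018986-19019085, bottom strand: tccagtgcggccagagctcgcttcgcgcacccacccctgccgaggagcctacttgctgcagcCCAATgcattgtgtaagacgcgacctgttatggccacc
Pbx3 promoter, chr2:34373143-34373242, bottom strand: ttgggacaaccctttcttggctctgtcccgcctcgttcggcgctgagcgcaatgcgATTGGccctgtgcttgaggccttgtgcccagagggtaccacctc
Pbx4 promoter, chr8:69832391-69832490, top strand: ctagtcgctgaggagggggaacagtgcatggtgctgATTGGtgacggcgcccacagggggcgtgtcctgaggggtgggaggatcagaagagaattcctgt

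CCAAT was in these 100 bases for 3 of the 8 genes and for 21% of 21935 protein-coding genes with sequence. GGGCGG, the box bound by Sp factors, was in 2 of the 8 (Pbx2 and Pknox1) and in 30.8% of all genes. Unlike the 3 printed stretches, those of Pbx2, Pknox1, Meis2, Meis3 and Pknox2 did not lie inside a shared site. TGACAG was in 0 of the 8 against 5.97% of all genes, and TGATTNAT in 0 of the 8 against 0.775%. A match is a run of letters and not a bound site.

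All 8 genes had a promoter peak in both replicates. By the same rule 69.3% of all protein-coding genes had a promoter peak shared by the replicates, 72.6% had one in replicate 1 and 70.4% had one in replicate 2. For hotspots, the wider regions of raised cutting that the authors called beside the peaks, 69.9% of all genes and all 8 of these had a promoter hotspot shared by the replicates. Each promoter peak carries the authors' score, a whole number that reached 150 in replicate 1 and 146 in replicate 2. The score has no stated normalization, and it served only to describe and rank peaks within a list. The median of the highest promoter score over all protein-coding genes, a gene without a peak counted as 0, was 99 in replicate 1 and 85 in replicate 2.

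Among the Meis genes, Meis1, which acts in blood formation and eye development, had its strongest promoter peak at a score of 132 in replicate 1 and 118 in replicate 2. It lies at chr11:19018956-19019105 over the outermost cluster of start sites, and both replicates placed it at the same bases. A second promoter peak, overlapping an exon, scored 88 in replicate 1 and 70 in replicate 2. Replicate 2 listed 5 more Meis1 promoter peaks that replicate 1 did not, with scores of 29 to 59. Those of scores 59, 43 and 42 lay by the internal start site of position 19016289. Replicate 1 had no peak within 500 bp of that start, and the hotspots there were in replicate 2 alone. Over the outermost cluster the shared promoter hotspot was 778 bp wide in replicate 1 and 1275 bp in replicate 2. In that hotspot the replicates shared the core and differed at the edges.

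Meis2 had 16 annotated start sites, and those with promoter peaks formed 2 groups. At the 5′ end, 7 promoter peaks of replicate 1 overlapped peaks of replicate 2, and the strongest, at the outermost start site, scored 125 in replicate 1 and 93 in replicate 2. The other group lies near the 3′ end of the gene, where further transcripts start. A peak there at chr2:115872976-115873125 scored 89 in replicate 1 and 54 in replicate 2. The 4 start sites between the groups and 1 nearer the 3′ end had no peak within 500 bp in either replicate.

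Meis3 had the lowest promoter scores of the 8 genes. Its strongest peak, over the 5′ start sites, scored 99 in replicate 1 and 82 in replicate 2, close to the medians of all genes. A second shared peak at an internal start site scored 65 in replicate 1 and 61 in replicate 2.

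Among the Pbx genes, which encode the partners of Meis and Pknox, Pbx2 had a strongest promoter peak of nearly equal score in the replicates, 126 in replicate 1 and 125 in replicate 2. It lies at chr17:34592136-34592285, at the start site of position 34592263. The outermost annotated start, at 34591266, had no peak within 500 bp in either replicate. The hotspot over this promoter spanned 1918 bp in replicate 1 and 1828 bp in replicate 2.

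Pbx3, which is needed in mice for breathing after birth, had a pair of strong peaks beside its outermost start site. The peak across that start scored 140 in replicate 1 and 118 in replicate 2. The next peak, centred 351 bp inside the gene in replicate 1 and 371 bp in replicate 2, scored 126 in replicate 1 and 127 in replicate 2. A further shared peak at internal start sites scored 78 in replicate 1 and 77 in replicate 2, so the order of the first pair differed between replicates while the third was lower in both. A single hotspot covered all 3, and its width was 2157 bp in replicate 1 against 1691 bp in replicate 2.

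Pbx4, known in mouse for its expression in testis, had a single promoter peak, with a score of 127 in replicate 1 and 118 in replicate 2. The hotspot around it was 695 bp wide in replicate 1 and 825 bp in replicate 2. Its 3 internal start sites had no peak in either replicate.

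Of the Pknox genes, Pknox1, which mouse embryos need early in development, had the highest promoter scores of the 8 genes. Its strongest peak scored 143 in replicate 1 and 136 in replicate 2, at the 93.8 percentile of all genes in replicate 1 and the 97.2 percentile in replicate 2. A neighbouring peak scored 141 in replicate 1 and 131 in replicate 2, and another 95 in replicate 1 and 85 in replicate 2. The 1001 bp around its outermost start had a GC content of 73.3%, against a median of 54.7% over all genes. The GC contents of the other 7 promoters ran from 50.2% to 62.5%, and whether GC content moved the score was not tested.

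Pknox2 had a strongest promoter score of 112 in replicate 1, and its shared peak at the same place scored 79 in replicate 2. Replicate 2 listed a further peak across the outermost start with a score of 87, and replicate 1 listed no peak there. Both hotspot lists covered that start, by hotspots whose widths were 1921 bp in replicate 1 and 2529 bp in replicate 2. The outermost start was thus in a hotspot in both replicates and at a peak in 1.

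**Figure D1:**
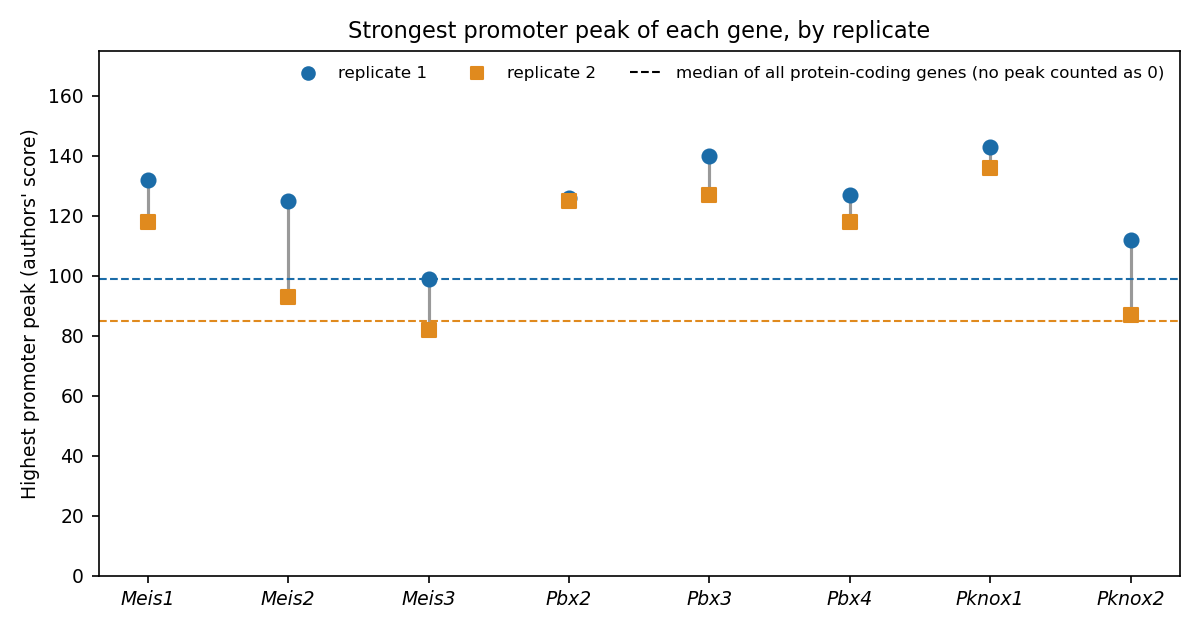
Highest promoter peak of each gene as the authors' score (vertical axis, no unit), with a circle for replicate 1, a square for replicate 2 and dashed lines for the medians of all protein-coding genes in each replicate. Pknox1 is highest at 143 and 136, and Meis3 is lowest at 99 and 82, next to the dashed lines at 99 and 85.

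The windows of the 8 genes held 762 peaks in replicate 1 and 633 in replicate 2. Of these, 65% in replicate 1 and 78.2% in replicate 2 overlapped a peak of the other replicate, against 59.2% and 83.6% of all peaks on the main chromosomes. The lists differ in length over the whole genome, with 304233 peaks in replicate 1 and 217980 in replicate 2, a ratio of 0.716. Read depth is not known for either library, so the number of peaks can rise with depth, and its part in these counts was not tested. In the windows of the 8 genes the ratio was 0.831.

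The ratio was highest for Meis2 and lowest for Pbx3. The Meis2 window had 111 peaks in replicate 1 and 112 in replicate 2, a ratio of 1.01 that stood at the 95.7 percentile of 19181 genes with at least 20 replicate 1 peaks. The Pbx3 window had 102 peaks in replicate 1 and 63 in replicate 2, a ratio of 0.618 at the 10.1 percentile. The median ratio over those genes was 0.778.

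In all 8 windows and both replicates, peaks found in 1 replicate alone had a lower median score than the shared ones, by the least for Meis1 in replicate 2 (41 against 43). In the Meis2 window 48 peaks were in replicate 2 alone, with a median score of 28 against 43 for its shared peaks, and 6 of the 48 reached the median score of the whole replicate 2 list. Of these 48 peaks 8 lay in the gene body. In the 200 kb beyond each side of the Meis2 window the ratio was 0.744, with 43 peaks in replicate 1 and 32 in replicate 2. In the Pbx3 window 52 peaks were in replicate 1 alone, with a median score of 39 against 63 for its shared peaks.

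The 6 other windows had ratios from 0.771 (Pknox2) to 0.941 (Pknox1). The Meis3 window had the closest agreement of replicate 2 with replicate 1, with 4 of its 73 replicate 2 peaks found in that replicate alone. Over the 333 shared distal sites the scores of the replicates had a Spearman rho of 0.785 across sites, and within windows it ran from 0.668 for Pbx2 to 0.917 for Pbx4. Sites of a window share libraries and are not independent replicates.

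**Figure D2:**
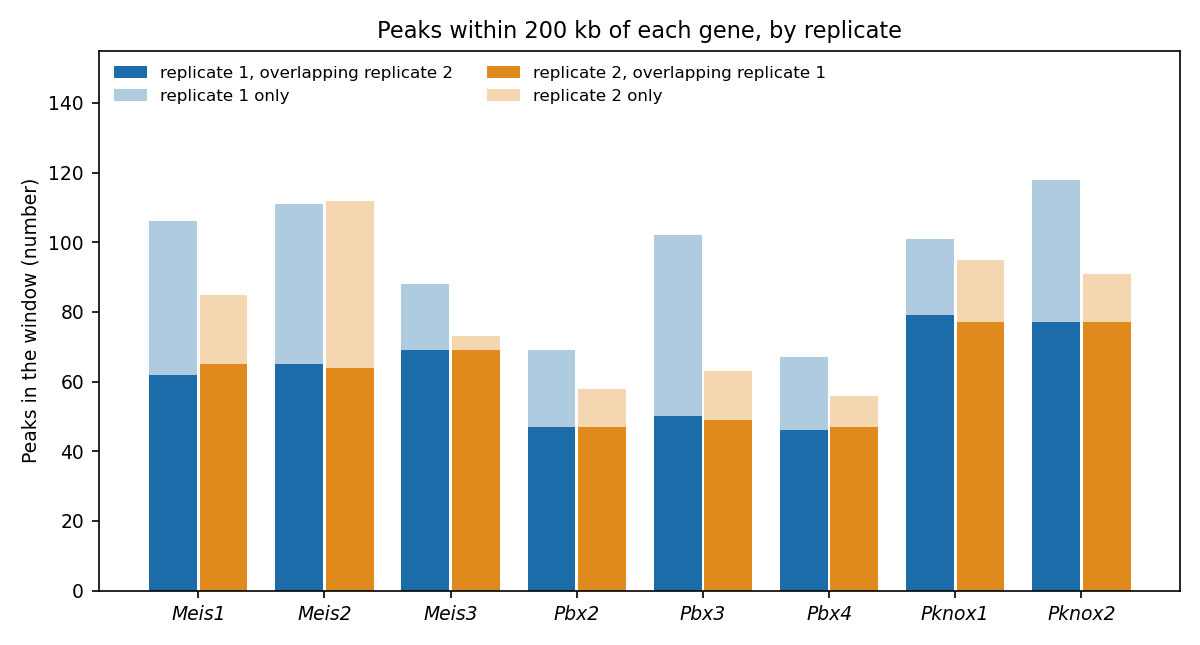
Number of peaks in the window of each gene (gene body and 200 kb on each side), in blue for replicate 1 and orange for replicate 2, with the pale part of each bar for peaks found in that replicate alone. Meis2 has bars of equal height, 111 and 112 peaks, while Pbx3 has 102 in replicate 1 and 63 in replicate 2.

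The 8 windows held 488 shared sites, of which 333 were distal. The median over the 8 genes was 8.49 shared distal sites per 100 kb of window, against 6.1 over all protein-coding genes (quartiles 3.49 and 8.47). In order of density, Pknox1 had 11.7 sites per 100 kb, Meis3 10.2, Meis1 9.64, Pknox2 8.68, Meis2 8.29, Pbx3 6.32, Pbx2 5.66 and Pbx4 4.32. By shared sites the Meis and Pknox genes were thus above the median of all genes, and the Pbx genes lay around or below it. The order depended on the replicate. From the peaks of replicate 1 alone, the densest windows were Meis1 at 17.4 sites per 100 kb, Meis2 at 15.4 and Pknox1 at 15.4, and Pbx3 at 14.3 passed Pknox2 at 13.7 and Meis3 at 13.1. From the peaks of replicate 2 alone, they were Meis2 at 13.9, Pknox1 at 13.5, Meis1 at 11.5, Meis3 at 10.7 and Pknox2 at 10.1, with Pbx3 at 8.31. Pbx2 and Pbx4 were lowest in both, at 7.88 and 7.28 in replicate 1 and 6.65 and 5.23 in replicate 2. They were also the only 2 of the 8 below the medians of all protein-coding genes, 10.4 in replicate 1 and 7.33 in replicate 2.

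The dense windows were of different kinds. Pknox1 (94.6 percentile) and Meis3 (88.1 percentile) share their windows with 6 and 12 other protein-coding genes, and for 6 of 52 and 5 of 42 sites the nearest protein-coding start site was the gene's own. Meis1 and Meis2 have no other protein-coding start site in their windows, and here the gene's own start was the nearest protein-coding one for 52 of 52 and 47 of 50 sites. Among 652 protein-coding genes with no other protein-coding start site in the window, the median density was 3.13 sites per 100 kb. Within that set Meis1 stood at the 92.4 percentile and Meis2 at the 88.1 percentile.

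**Figure D3:**
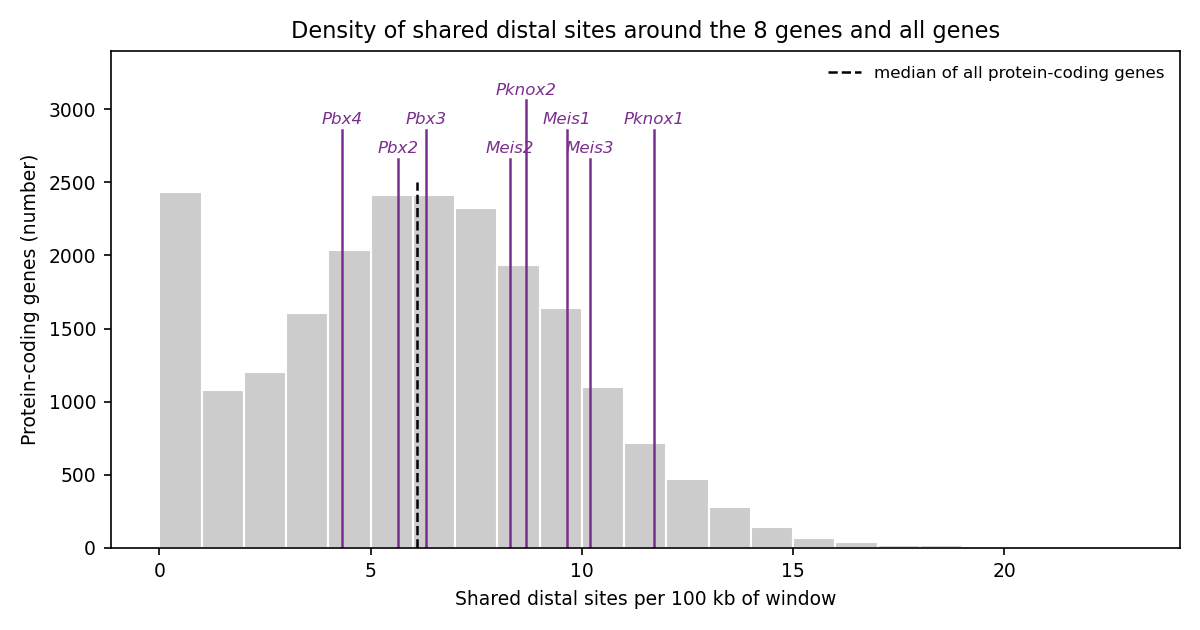
Number of protein-coding genes (vertical axis) by shared distal sites per 100 kb of window (horizontal axis), with the 8 genes as purple lines and the median of all genes, 6.1, as a dashed line. Pbx4 and Pbx2 lie left of the dashed line, Pbx3 just right of it at 6.32, and Pknox1 farthest right at 11.7.

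Of the 333 shared distal sites 119 lay upstream of the gene, 124 downstream, 86 in its introns and 4 in its exons. The gene bodies held 27% of the sites and made up 22% of the window length. Shares differed among the long genes. Pknox2 had 70.2% of its sites in the gene, which fills 39.1% of the window. Meis2 had 48% in the gene, which fills 33.6%. Meis1 had 19.2% in a gene that fills 25.8%, and Pbx3 28.9% in a gene that fills 33.5%. For Pknox2 and Meis2 the gene's share of the sites exceeded its share of the window, and for Meis1 and Pbx3 it was below it.

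The sites were ranked by the percentile of their score within each replicate's list, averaged over the replicates. The median of this mean rank was 63 for the 333 sites and 57.3 for all 134824 shared distal sites. A mean rank of 90 or more was reached by 35 of the 333 sites, or 10.5%, against 5.72% of all shared distal sites. Pknox1 had 10 of the 35, Meis1 7, Meis3 6, Pbx3, Pbx4 and Pknox2 3 each, Meis2 2 and Pbx2 1. Those of Pknox1, Meis3, Pbx2 and Pbx4 were all nearest to a start site of another protein-coding gene. Among protein-coding start sites, the nearest to those of Meis1 and Meis2 was always the gene's own, and Pbx3 and Pknox2 had some of each. Starts of noncoding genes were not counted here, and some lay nearer.

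The highest-ranked distal site of Meis1, at chr11:19020426-19020575, lay 1.52 kb upstream of the outermost start site and scored 141 in replicate 1 and 128 in replicate 2. These scores exceed those of the Meis1 promoter itself, 132 and 118. The widest Meis1 hotspot of replicate 2, 1689 bp, covered this site. In replicate 1 the widest, 1779 bp, lay 141.5 kb beyond the start, past the 3′ end of the gene and 2306 bp from a start of the noncoding gene 8430419K02Rik. The densest 20 kb, with 8 sites, lay 83.9 to 103.9 kb upstream. The intronic site printed above, 73.9 kb inside the gene, scored 83 in replicate 1 and 51 in replicate 2.

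In the Meis2 window 2 distal sites had a mean rank of 94.4. The printed one, 5.81 kb upstream and within the noncoding gene G630016G05Rik, scored 107 in replicate 1 and 98 in replicate 2. The other, at chr2:115855936-115856105, 209.8 kb from the start and past the 3′ end of the gene, scored 112 in replicate 1 and 93 in replicate 2. The densest 20 kb, with 8 sites, lay in the 3′ part of the gene, 169.7 to 189.7 kb from the start. The longest stretch with no peak of either replicate, 57.2 kb, was centred 106.5 kb upstream. The 2 sites of mean rank 94.4 were the only ones of Meis2 with a mean rank of 90 or more.

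In the Meis3 window the highest-ranked site scored 136 in replicate 1 and 126 in replicate 2, and lay 122.2 kb upstream, nearest to a start of Bicra. The densest 20 kb there, 111.0 to 131.0 kb upstream, held 10 sites, the most of any of the 8 windows. The Meis3 gene body itself, 11.4 kb long, held 0 shared distal sites.

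The highest-ranked site of Pbx2 scored 101 in replicate 1 and 78 in replicate 2, and lay 50.2 kb downstream of the start, nearest to Fkbpl. None of its 23 distal sites had Pbx2 as the nearest protein-coding start. The printed Pbx3 site, in an intron 123.4 kb from the start, scored 117 in replicate 1 and 95 in replicate 2. It lies in the densest 20 kb of the Pbx3 window, with 7 sites at 104.0 to 124.0 kb. The printed Pbx4 site had the highest mean rank of these named sites, 99.8, with scores of 147 in replicate 1 and 136 in replicate 2, and lay 115.4 kb upstream of Pbx4 and nearest to Zfp869.

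The highest-ranked site of Pknox1 scored 135 in replicate 1 and 103 in replicate 2, 212.5 kb from its start and nearest to Sik1. That of Pknox2 scored 120 in replicate 1 and 100 in replicate 2, in an intron 213.5 kb from the start. The Pknox2 gene held 40 of its 57 distal sites.

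Hotspots covered 4.49% (Meis2) to 7.36% (Meis3) of the windows in replicate 1 and 2.77% (Pbx3) to 6.22% (Pknox1) in replicate 2, against medians of 4.7% and 3.48% over all protein-coding genes. In both replicates the widest hotspot of the Pbx2, Pbx3, Pknox1 and Pknox2 windows lay at the gene's own promoter. Those of the Meis2 window also lay within 500 bp of a Meis2 start, at different places, with 1463 bp in replicate 1 and 2369 bp in replicate 2. The Meis2 one of replicate 1 also covered a start of the noncoding gene 2700033N17Rik. The widest of the Meis3 window lay at a start site of Bicra, with 3495 bp in replicate 1 and 1863 bp in replicate 2. Those of the Pbx4 window lay at start sites of Gatad2a, with 1553 bp in replicate 1 and, at another place, 1647 bp in replicate 2.

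**Figure D4:**
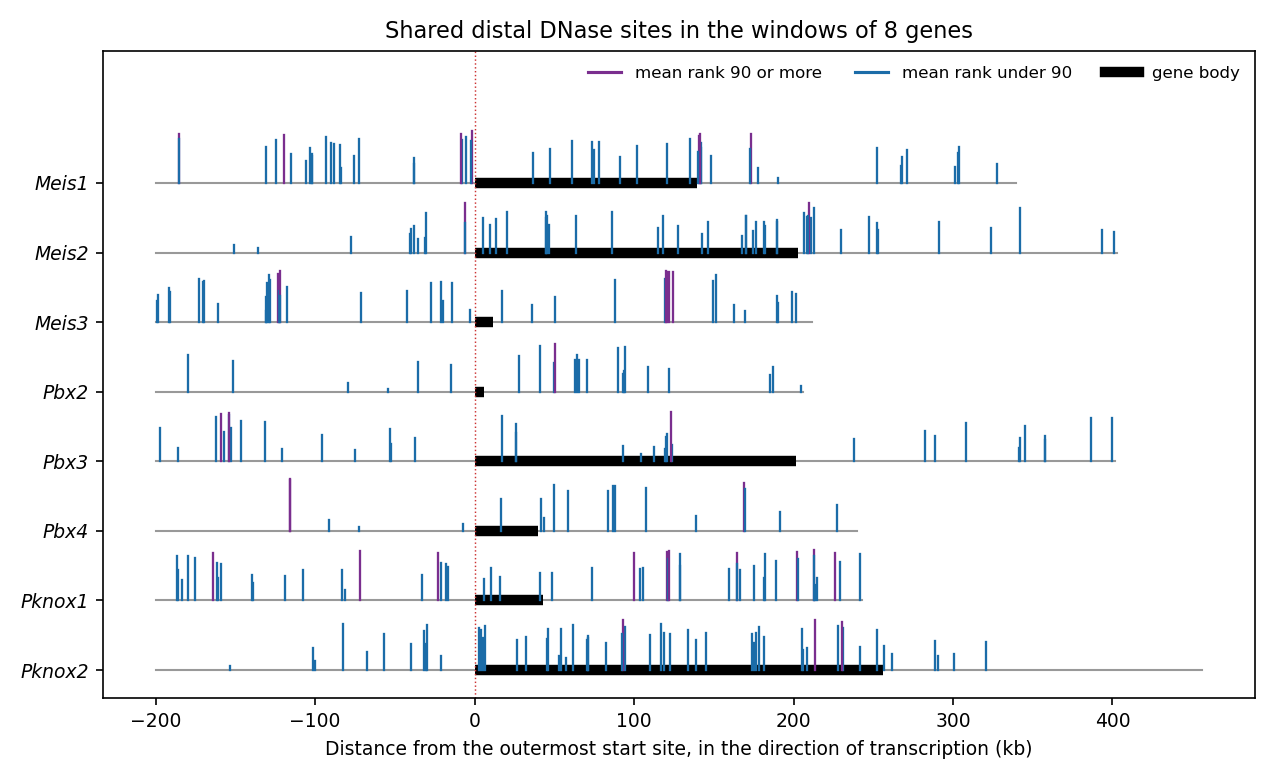
Shared distal sites of each window by distance from the outermost start site in the direction of transcription (kb), with tick height showing the mean rank, purple ticks a mean rank of 90 or more, black bars the gene body and grey lines the window. Sites of Pknox2 crowd within its gene body, those of Meis3 and Pbx4 lie almost all outside it, and Pknox1 has the most purple ticks, 10.

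Motifs were sought on both strands in the central 150 bp of each shared distal site. TGACAG, the Meis and Pknox site, was in 36 of the 333 sites (10.8%), against 13.4% of all shared distal sites. TGATTNAT, a site of Pbx with Hox, was in 8 (2.4%), against 2.05%. TGATNGACA, the composite site of Pbx with Meis or Pknox, was in 0 of the 333 sites, and in 603 (0.447%) of 134823 shared distal sites with sequence. That share of 333 sites is 1.49 sites, so a count of 0 is close to it.

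Across the windows TGACAG ran from 4.35% of sites at Pbx2 to 15.8% at Pbx3, on counts of 1 to 7 sites. The Meis2 window, with 50 of the 333 sites, held 9 of the 43 with TGACAG or TGATTNAT. Of these 9, 7 lay in the gene body or up to 10 kb upstream of it, a stretch that held 26 of all 50 sites of the window. This stretch was not among the planned limits and was counted for Meis2 alone, and the difference was not tested. TAATTA, a core shared by many homeodomain proteins, was in 5.71% of the 333 sites and 4.25% of all. TGANTCA, the AP-1 site, was in 6.61% and 6.64%.

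CAGCTG, an E-box bound by basic helix-loop-helix proteins, was in 79 of the 333 sites (23.7%), against 19.5% of all. In the Pknox1 window 25 of 52 sites held it (48.1%), while the other 7 windows ran from 12% at Meis2 to 26.3% at Pbx4. The median GC content of the Pknox1 sites was 54.3%, against 51.3% for the 333 sites and 48.7% for all shared distal sites. The Meis3, Pbx2 and Pbx4 sites had GC medians of 53.7%, 56% and 54.7% with CAGCTG in 21.4%, 21.7% and 26.3%. The Pknox1 share was noticed among 6 motifs and 8 windows and was not tested.

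**Figure D5:**
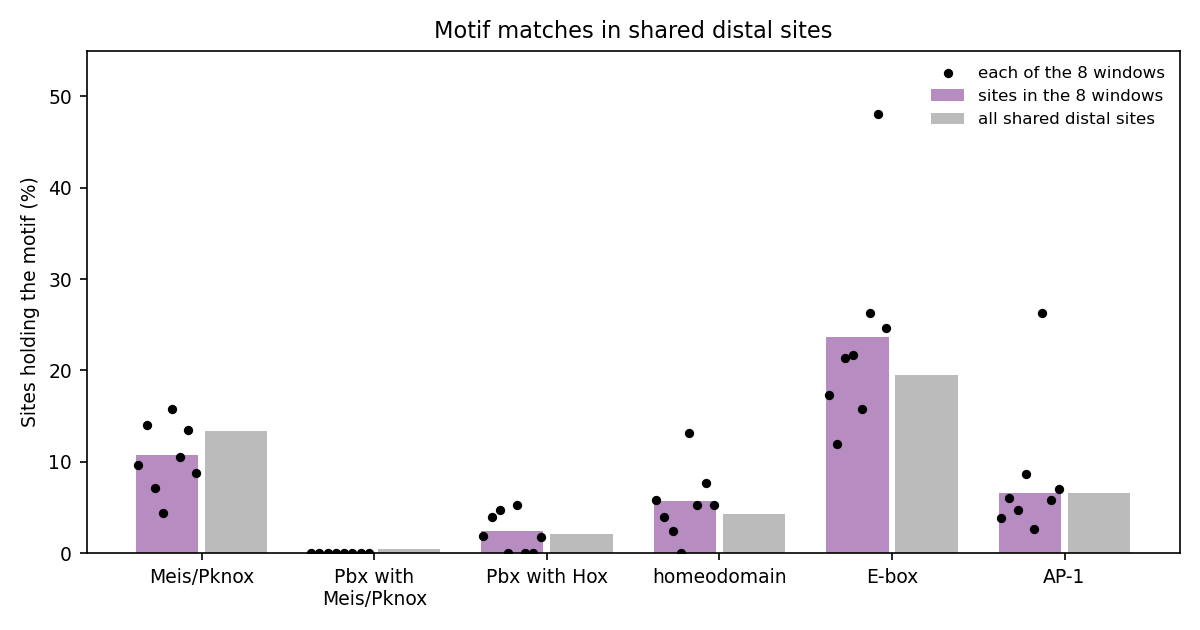
Percent of shared distal sites holding each of 6 motifs in their central 150 bp, with purple bars for the 333 sites of the 8 windows, grey bars for all shared distal sites and black points for the single windows. The bars of each pair differ by a few points at most, and the highest point is Pknox1 for the E-box at 48.1%.

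Related genes were described by the same rules, by which 69.3% of all protein-coding genes had a shared promoter peak and the median density was 6.1 shared distal sites per 100 kb. Of 9 other TALE genes (the Irx and Tgif genes and Mkx) 8 had a shared promoter peak, and their median was 8.18 shared distal sites per 100 kb. Irx4 was the exception, with a peak of score 41 in replicate 2 alone. Of 9 facial or branchial arch genes tied to Pbx or Meis in mouse, all 9 had a shared promoter peak, with a median of 11.8 sites per 100 kb. Meox1 was densest at 13.9 sites per 100 kb, and Wnt9b, a Wnt ligand of the facial epithelium, was lowest at 6.15. Wnt3 had promoter scores of 71 in replicate 1 and 61 in replicate 2, and Snai1, a regulator of epithelial to mesenchymal change, 141 in replicate 1 and 133 in replicate 2.

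Of the 12 Hox genes of groups 1 to 4, partners of Pbx in the hindbrain and the branchial arches, 5 had a shared promoter peak, 8 had one in replicate 1 and 8 had one in replicate 2. The corresponding shares of all protein-coding genes were 69.3%, 72.6% and 70.4%. Hoxb2 had peaks in both replicates, of scores 46 in replicate 1 and 35 in replicate 2, that did not overlap. Hoxa4 had promoter scores of 85 in replicate 1 and 87 in replicate 2, and Hoxb1 62 in replicate 1 and 39 in replicate 2. Hoxa2 and Hoxa3 had no promoter peak in either replicate.

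Marker genes were read for the tissue label beside the 69.3% of all protein-coding genes with a shared promoter peak. A shared promoter peak was found for 8 of 8 markers of facial mesenchyme, 6 of 6 of epithelium, 3 of 3 of cartilage, 2 of 3 of skeletal muscle, 4 of 4 of neurons and 3 of 3 of endothelium. It was found for 0 of 3 markers of erythroid cells, 0 of 3 of macrophages and 1 of 4 of hepatocytes, cells of an organ outside the face. Ahsg was the hepatocyte marker with a shared peak, at scores of 48 in replicate 1 and 18 in replicate 2. In replicate 1 alone the counts were 3 of 3 for skeletal muscle and 2 of 4 for hepatocytes, and in replicate 2 alone 1 of 3 for macrophages. Lists of 3 or 4 genes that all have a peak are not far from the share of all genes, so these counts say little on which cell types were present. In bulk tissue a site open in few cells and a site weakly open in many cannot be told apart.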

How the data were processed

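DNase-seq libraries of 2 biological replicates of mouse embryonic facial prominence were used, each with called peaks and called hotspots placed on mm10, per the deposited descriptions. Those descriptions say that each list came from the filtered alignments of its own replicate, with no pooling. Read depth, aligner and peak caller (with its version and threshold) were not given in the sources used here, so the precision of single values is unknown. Peaks are 150 bp wide and carry a score that the authors deposited without a stated normalization. Hotspots carry the −log10 of a q-value, by the broad peak format in which the authors deposited them, from 1.3 to a ceiling of 100. Sequencing instruments are listed for replicate 1 only, so whether the replicates differ in batch is not known. Any such difference could not be told apart from a difference between replicates.

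Peaks on the main chromosomes were kept (304233 in replicate 1 and 217980 in replicate 2). Overlapping peaks of both replicates were merged into 177440 shared sites. Start sites came from the full GENCODE M21 annotation. The basic annotation lacks the outermost start site of Pbx3, and the full one was chosen after seeing this. Motifs were matched by letters on both strands. No p-values were computed. Values of the 8 genes are set beside all protein-coding genes, with percentiles among them. Named sites are every promoter peak described and, in each window, the distal site of highest mean rank, the widest hotspot and the densest 20 kb. The rule also asked for the highest-ranked site with TGATNGACA, and there was none. The counting functions were tested on simulated peaks and returned the planted numbers. The genes, lists and motifs were chosen with earlier results of these data known. Alternatives were another overlap, stronger peaks alone, lists of equal length, each replicate alone, hotspots, and other promoter, distal and window limits. Python 3.11.15, numpy 2.4.6, pysam 0.24.0 and samtools 1.23.1 were used.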

Additional observations from a re-analysis of the deposited data

How the results depend on the processing

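All 8 genes kept a promoter peak under each alternative run for it: an overlap of 75 bp, stronger peaks alone, lists of equal length, each replicate alone, hotspots, a promoter window of 1000 bp and the basic annotation, which was added after seeing the data. With peaks at or above the median score of their list, the windows held 189 shared distal sites, the median density was 4.91 per 100 kb, and 88.8% of replicate 2 peaks overlapped replicate 1. Counting only sites whose nearest protein-coding start site was the gene's own left 164 sites and a median of 1.76. Windows of 100 kb on each side held 213 sites, with a median of 8.41 per 100 kb. Gene bodies alone held 90, with a median of 6.32. Without replicate 1, the peaks of replicate 2 gave 416 distal sites, a median of 10.4 per 100 kb and TGATNGACA in 0% of sites. Without replicate 2, the peaks of replicate 1 gave 549 sites, a median of 14 and TGATNGACA in 0.364%. Peaks of 1 list need no partner to be counted, so both counts exceed that of shared sites. With lists of equal length, 72.7% of replicate 1 peaks and 73.3% of replicate 2 peaks overlapped the other list, against 65% and 78.2% in the main setting. The remaining alternatives left these values within 1.5 times, or within the SD between replicates. For the overlap percents that SD, 9.36, came from the main percents of replicates 1 and 2, whose lists differ in length, so it is a loose limit. For the median density the SD, 2.56, came from the medians of each replicate alone, 14 and 10.4, and is loose for the same reason. Of 88 counts for single genes under the alternatives, 58 stayed within 1.5 times of the reported count and 30 did not. No paired analysis was possible because there is 1 group. Unknown read depth limits how far peak numbers can be compared between replicates.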
